A study of Mus musculus with 98 samples.

Results

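A pair of large hindlimb muscles of wild-type mice was compared, the gastrocnemius, the main muscle of the calf, and the quadriceps of the front of the thigh. The groups were the 4 gastrocnemius and the 4 quadriceps libraries of FVB/NJ mice given PBS and taken at 4 days, 8 of the 98 libraries of the series, chosen by their titles and not by any measured value. FVB/NJ is an inbred strain and served as the wild type for HSALR mice, a model of myotonic dystrophy that carries a human skeletal actin transgene with an expanded CTG repeat and was bred to homozygosity here. The series as a whole follows an antisense oligonucleotide, EEV4-PMO, in HSALR muscle, and no library of the wild-type comparison received it. PBS, the vehicle, was given to every group used below. Libraries were made from total RNA after depletion of ribosomal RNA with a directional kit, per the labels' protocols, and the labels give neither the age nor the sex of the mice.

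Further libraries were read beside them. HSALR mice given PBS and taken at 4 days gave 4 gastrocnemius and 4 quadriceps libraries in the same 2 cohorts, and shared no library with the wild-type pair. HSALR mice given PBS also gave 8 gastrocnemius libraries at 7 days and 4 quadriceps libraries at 3 months in 2 other cohorts, and these 12 are called the other-cohort pair. That pair differs in time point as well as in muscle. FVB gastrocnemius at 7 days (n = 4) came from the same cohort as the 8 HSALR libraries. In each of these sets every cohort holds a single muscle, so that muscle and cohort cannot be told apart within a pair. Y-linked genes marked 2 of the 4 libraries as male in each group of 4 days.

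Limb muscles keep the expression of the patterning genes of the limb segment in which they formed: genes of the Hox clusters, transcription factors switched on in an order that follows their place on the chromosome, and T-box factors. Muscles also differ in fibre type, as slow fibres use the slow myosin and oxidative enzymes and fast fibres use fast myosins and glycolysis. Titin, encoded by Ttn, is the giant protein that spans each sarcomere from Z-disc to M-line and acts as its spring. Its I-band holds a long run of short exons whose inclusion sets the length, and with it the stiffness, of the spring.

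Most of the splicing differences lay in that run of titin exons, and the 4 exons shown are those with the largest differences in inclusion. Exons 131 and 184 belong to the units of 84 nucleotides that recur along the run. They are read 5′ to 3′ on the minus strand of GRCm38 and numbered by the GENCODE vM21 transcript Ttn-203. In exons 131 and 184, capitals mark the 51 of 84 positions (60.7%) with the same base in both when they are laid side by side without gaps. The other 2 are shown without capitals because each has a length that no other exon of the 4 has. Exon 157 lies at chr2:76836733-76836813, exon 116 at chr2:76861423-76861509, exon 131 at chr2:76852834-76852917 and exon 184 at chr2:76828873-76828956.
Ttn exon 157: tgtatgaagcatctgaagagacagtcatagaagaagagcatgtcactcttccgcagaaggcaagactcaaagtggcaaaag
Ttn exon 116: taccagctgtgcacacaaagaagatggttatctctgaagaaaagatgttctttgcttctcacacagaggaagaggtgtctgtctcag
Ttn exon 131: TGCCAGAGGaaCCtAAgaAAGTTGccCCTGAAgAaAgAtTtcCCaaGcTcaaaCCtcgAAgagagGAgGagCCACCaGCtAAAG
Ttn exon 184: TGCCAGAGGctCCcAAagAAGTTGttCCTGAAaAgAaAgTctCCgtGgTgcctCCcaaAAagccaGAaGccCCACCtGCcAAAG

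Several libraries stood apart from their group, and each is given here before the results it touches. FVB quadriceps replicate 1 had a summed level of 15700 TPM over 20 adipocyte genes, against 3590 to 3940 in the other 3 and 3230 to 5170 in gastrocnemius. TPM is a level per transcript length scaled to the same total in every library, so that a rise of abundant RNAs pushes the TPM of the rest down. FVB quadriceps replicate 3 had a value for 58335 splicing events, against 67997 to 69443 in the others, and 15346 genes above 0, against at least 17264 in every other library of the 4-day groups. In the other-cohort pair, the library labelled HSALR gastrocnemius 7 days replicate 6 had 37.1 TPM of Tbx1 and 0.872 TPM of Hoxd10, against medians over all 44 gastrocnemius libraries of 9.70 and 4.89. The library labelled HSALR quadriceps 3 months replicate 3 had 9.04 TPM of Tbx1 and 4.91 of Hoxd10, against quadriceps medians (54 libraries) of 46.7 and 1.08. Both thus had levels of the other muscle for these genes. Results of the other-cohort pair are given with all 12 libraries and, where it matters, without these 2. Leaving them out is circular for Tbx1, the Hox genes and titin, by which they were noticed. The human transgene was read at 42.1 to 80.7 TPM in the 8 FVB libraries and 6980 to 26200 TPM in the 8 HSALR libraries of 4 days.

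Of 13651 genes with a mean of at least 1 TPM, 1315 (9.63%) differed between the muscles of wild-type mice at an adjusted p under 0.05. There were 1118 (8.19%) higher and 197 (1.44%) lower in gastrocnemius. The test was limma on log2(TPM + 1) in 1 fit with the HSALR groups of 4 days, two-sided, with Benjamini-Hochberg adjustment over all genes. All fold changes below are gastrocnemius minus quadriceps on that scale, which understates the change of low genes. The median gene differed by 0.03. Shifting each library to a common median gene gave 1444 higher and 1087 lower, so the split between the directions depends on the scaling. The levels of 1706 genes (12.5%) did not overlap between the 4 and the 4 libraries. The labels do not say that replicates came from separate mice, and p-values measure the spread between libraries.

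Hox genes differed between the muscles in both directions, mostly higher in gastrocnemius. Of 23 Hox genes tested of 40, 10 were higher and 2 lower in gastrocnemius, with a median difference of 0.30 beside 0.03 over all genes and 9.63% of all genes called. The 10 were Hoxa4, Hoxa6, Hoxa11, Hoxa13, Hoxc5, Hoxc11, Hoxd4, Hoxd8, Hoxd9 and Hoxd10, and the 2 were Hoxc6 and Hoxc10. With median rescaling the counts were 10 and 3. Leaving out a library left 6 to 11 higher and 1 to 2 lower, a mean of at least 5 TPM left 4 and 2, and FVB libraries alone gave 3 and 0.

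Hoxd9 was read at 23.8, 21.9, 21.3 and 18.1 TPM in gastrocnemius and at 6.78, 5.59, 3.12 and 7.36 TPM in quadriceps. Every gastrocnemius library lay above every quadriceps library, by a wide margin (log2 difference 1.77 ± 0.22 SE, adjusted p = 0.00024). Hoxd10, its neighbour in the cluster, was read at 7.53, 5.02, 5.19 and 4.55 TPM against 1.03, 0.729, 1.12 and 1.80 TPM (1.60 ± 0.18, adjusted p = 0.0001). Hoxd8 stood at 70.3, 50.3, 52.9 and 51.8 TPM in gastrocnemius, with replicate 1 above the rest, and at 23.4, 18.9, 15.5 and 24.4 TPM in quadriceps (1.42 ± 0.19, adjusted p = 0.00058). These 3 neighbours on the HoxD cluster thus kept non-overlapping groups. In the HoxA cluster, Hoxa13, a gene of the distal limb, was read at 1.52, 4.59, 4.22 and 3.94 TPM against 1.16, 0.635, 0.666 and 0.851 TPM (1.27, adjusted p = 0.0022). Hoxa11, which patterns the segment below the knee and elbow, was read at 1.72, 4.84, 5 and 3.04 TPM against 1.06, 1.31, 0.888 and 0.937 TPM (1.12, adjusted p = 0.0061). For both genes gastrocnemius replicate 1 was the lowest of its group but above all quadriceps libraries. Hoxa10, the next gene of the cluster, did not pass the test (-0.17, adjusted p = 0.41).

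The HoxC cluster held genes of both directions. Hoxc11 was read at 7.24, 9.89, 10.2 and 5.30 TPM against 2.98, 3.73, 5.75 and 2.41 TPM (0.97, adjusted p = 0.025), and gastrocnemius replicate 4 lay below quadriceps replicate 3. Hoxc6 was lower in gastrocnemius, at 6.20, 7.63, 7.26 and 4.55 TPM against 12.6, 12, 12 and 9.32 TPM (-0.76, adjusted p = 0.015). Hoxc10, a hindlimb gene, was the highest of the called Hox genes at 83.1, 85.2, 87.2 and 72.9 TPM against 90.9, 102, 99.8 and 102 TPM (-0.26, adjusted p = 0.017). Its groups did not overlap although the difference is small.

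Among 28 other factors of limb patterning and muscle identity 1 was higher and 3 were lower, all of the T-box family (14.3% called, beside 9.63% of all genes). Tbx1, a factor known from the formation of the jaw and throat muscles, was read at 3.38, 10.9, 8.07 and 10.6 TPM in gastrocnemius and at 31.1, 37.3, 38.3 and 42.4 TPM in quadriceps. The lowest quadriceps library lay far above the highest gastrocnemius library (-2.14 ± 0.24, adjusted p = 0.00011). Tbx15, a factor that in mice favours glycolytic fibres, was lower in gastrocnemius at 103, 136, 134 and 89.5 TPM against 128, 175, 161 and 180 TPM (-0.49, adjusted p = 0.041), and the groups overlapped. Tbx5, the factor that marks the forelimb, was at low levels of 1.22 to 1.62 TPM against 2.41 to 3.40 TPM (-0.71, adjusted p = 0.0054). Tbx4, its hindlimb counterpart, was higher in gastrocnemius at 3.19, 2.77, 3.72 and 3.38 TPM against 1.21, 1.37, 2.15 and 1.03 TPM (0.82, adjusted p = 0.004).

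**Figure D1:**
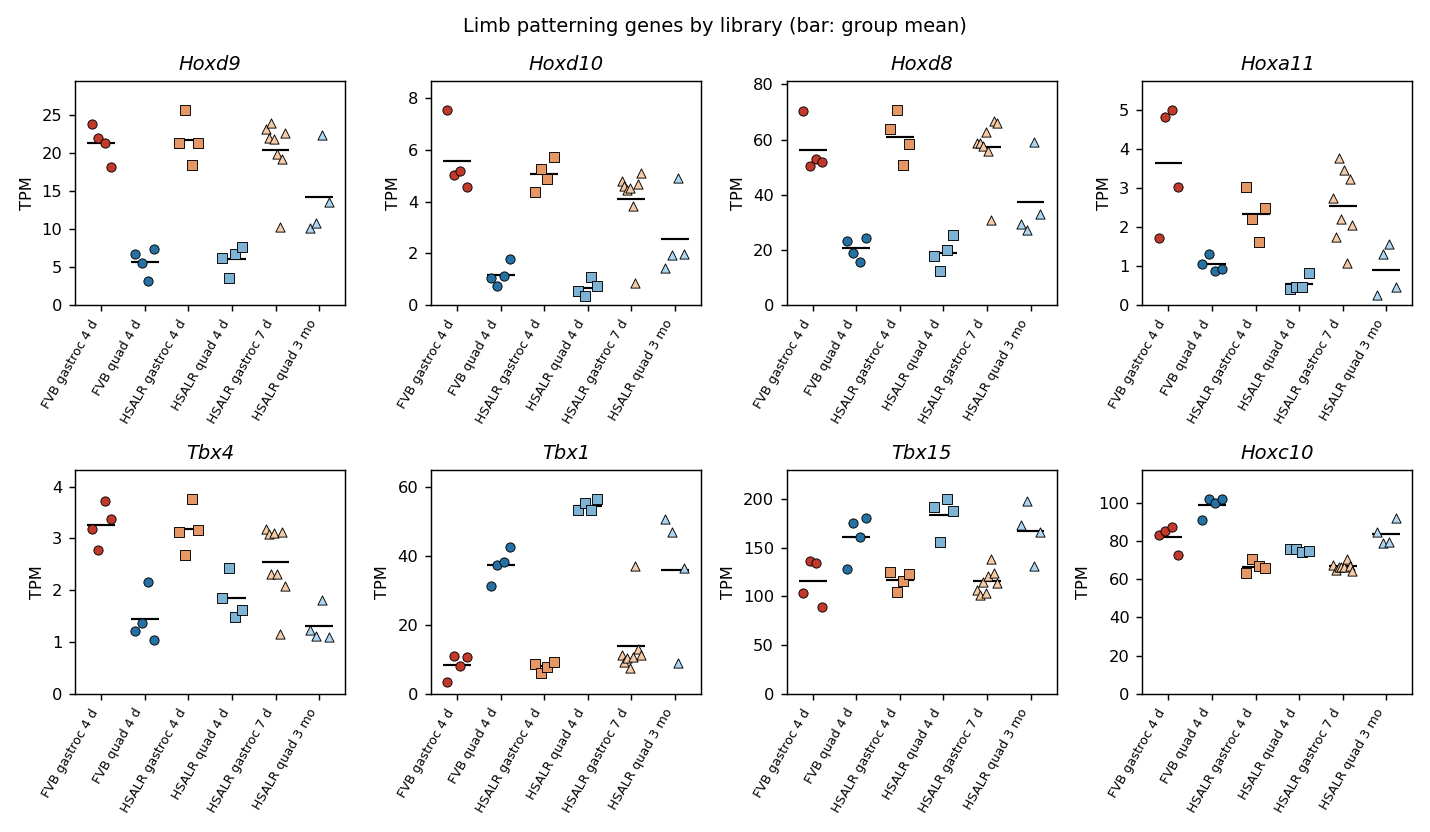
Levels in TPM (vertical axes, from 0) of 8 limb patterning genes in 6 groups given PBS, each point a library and each bar a group mean; circles are FVB, squares HSALR at 4 days and triangles the other cohorts. Hoxd9 in FVB gastrocnemius (18.1 to 23.8) lies above FVB quadriceps (3.12 to 7.36), Tbx1 shows the opposite order, and 1 triangle of each muscle lies with the other muscle for Tbx1, at 37.1 in gastrocnemius and 9.04 in quadriceps.

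The same genes were read in the HSALR libraries. In the 4-day pair Hoxd9 differed by 1.72 (adjusted p = 0.00012), Hoxd10 by 1.87 (adjusted p = 2e-05), Hoxd8 by 1.67 (adjusted p = 6.9e-05) and Tbx1 by -2.65 (adjusted p = 1.9e-05). In all, 9 Hox genes were higher and 0 lower of 23 there, beside 2576 genes called of all tested (18.9%). In the other-cohort pair 1591 of 13795 genes (11.5%) were called, and 3 Hox genes were higher and 3 lower. Hoxa11 (0.92, adjusted p = 0.034), Hoxd4 (0.54, adjusted p = 0.037), Tbx4 (0.60, adjusted p = 0.044), Tbx15 (-0.52, adjusted p = 0.01) and Hoxc10 (-0.32, adjusted p = 0.0022) passed with all 12 libraries. Hoxd9 (0.52, adjusted p = 0.16) and Tbx1 (-1.23, adjusted p = 0.093) did not, and reached 0.87 (adjusted p = 0.00079) and -2.0 (adjusted p = 0.00011) without the 2 libraries noticed by these genes. Hoxd9 stood at 10.1, 10.8, 22.3 and 13.6 TPM in quadriceps of 3 months, above the 8 quadriceps libraries of the 4-day pairs (3.12 to 7.64 TPM). Over all 98 libraries Tbx1 ran from 3.38 to 37.1 TPM in gastrocnemius and from 9.04 to 80.7 TPM in quadriceps. Without the same 2 libraries the ranges were 3.38 to 26.9 and 31.1 to 80.7 TPM.

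Splicing was read as PSI, the inclusion of an alternative exon, intron or splice site, as a fraction from 0 to 1. Of 55630 events with a value in all 16 libraries of the fit, 197 (0.354%) differed at an adjusted p under 0.05 and by at least 0.1 PSI, 155 (0.279%) higher and 42 (0.0755%) lower in gastrocnemius. Titin held 129 of the 197, from 1823 titin events tested (7.08%). In 55 other genes 59 events were called, all higher in gastrocnemius, from 53434 events (0.11%). Events share exons and junctions, so the 129 are not 129 separate changes. With FVB libraries alone 70 events were called, and the titin count ran from 45 to 67 higher and 14 to 27 lower when single libraries were left out.

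Titin exons were included more often in gastrocnemius. Among 1423 skipped-exon events of Ttn, 64 were called, 63 higher and 1 lower, and these lay in 32 of the 232 alternative exons. With replicate number as a block in the fit, only 3 of the skipped-exon events were called higher and 0 lower. All 32 exons were higher in at least 1 event, and 1 of them was lower in another event with other flanking exons. They ran from exon 49 to exon 203 of 347 (chr2:76817789-76902122, minus strand), and 30 of them lay between exons 116 and 203. All 32 had a length divisible by 3, as had 213 of the 232, so that their inclusion or skipping keeps the reading frame. They were 69 to 300 nucleotides long, and 12 of the 32 had 84 nucleotides, a length found in 33 exons of the transcript.

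Exon 157 was included at 1, 1, 0.795 and 1 PSI in gastrocnemius and at 0 in each of the 4 quadriceps libraries. The difference of 0.949 ± 0.098 SE (adjusted p = 0.0025) was the largest of the 32, for the event with the largest difference of each exon. Exon 116 was included at 0.957, 1, 1 and 1 PSI against 0.116, 0.101, 0.129 and 0.187 PSI (0.856 ± 0.061, adjusted p = 0.00015). For these 2 exons the muscles were near opposite ends of the scale, with little spread within a muscle. Exon 131 stood at 0.968, 0.865, 0.919 and 0.976 against 0.046, 0.169, 0.168 and 0.057 PSI (0.822, adjusted p = 0.0025). Exon 184 stood at 0.794, 0.853, 0.769 and 0.836 against 0.011, 0.043, 0 and 0.022 PSI (0.794, adjusted p = 0.0037). Exons 131 and 184 were chosen for their large differences in these 8 libraries, so their similar values follow from the choice. A link to their shared letters was not tested. Exon 147, of 75 nucleotides, stood at 0.790, 0.843, 0.914 and 1 against 0.129, 0.302, 0.214 and 0.169 PSI (0.683, adjusted p = 0.00031). The differences of the 32 exons ran from 0.129 to 0.949 with a median of 0.528, and 17 exceeded 0.5. At the low end, exon 202 was included in most transcripts of both muscles (mean 0.934 against 0.804). A PSI of exactly 0 or 1 rests on an unknown number of reads. Inclusion was read exon by exon, and the values do not say which exons are joined in 1 transcript.

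Another 65 called titin events were pairs of mutually exclusive exons, in which PSI sets the inclusion of 1 exon against the other; 39 of the 42 events lower in gastrocnemius were of this kind. The titin transcript as a whole was also slightly higher in gastrocnemius, at 5680, 5710, 5780 and 5120 TPM against 4630, 4460, 4410 and 4630 TPM (0.30, adjusted p = 0.019). Of 39 sarcomere genes with alternative exons 3 were higher and 0 lower, namely Ttn, Tpm3 and Dmd, the dystrophin gene (0.40, adjusted p = 0.014), a share near that of all genes (8.19% higher).

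**Figure D2:**
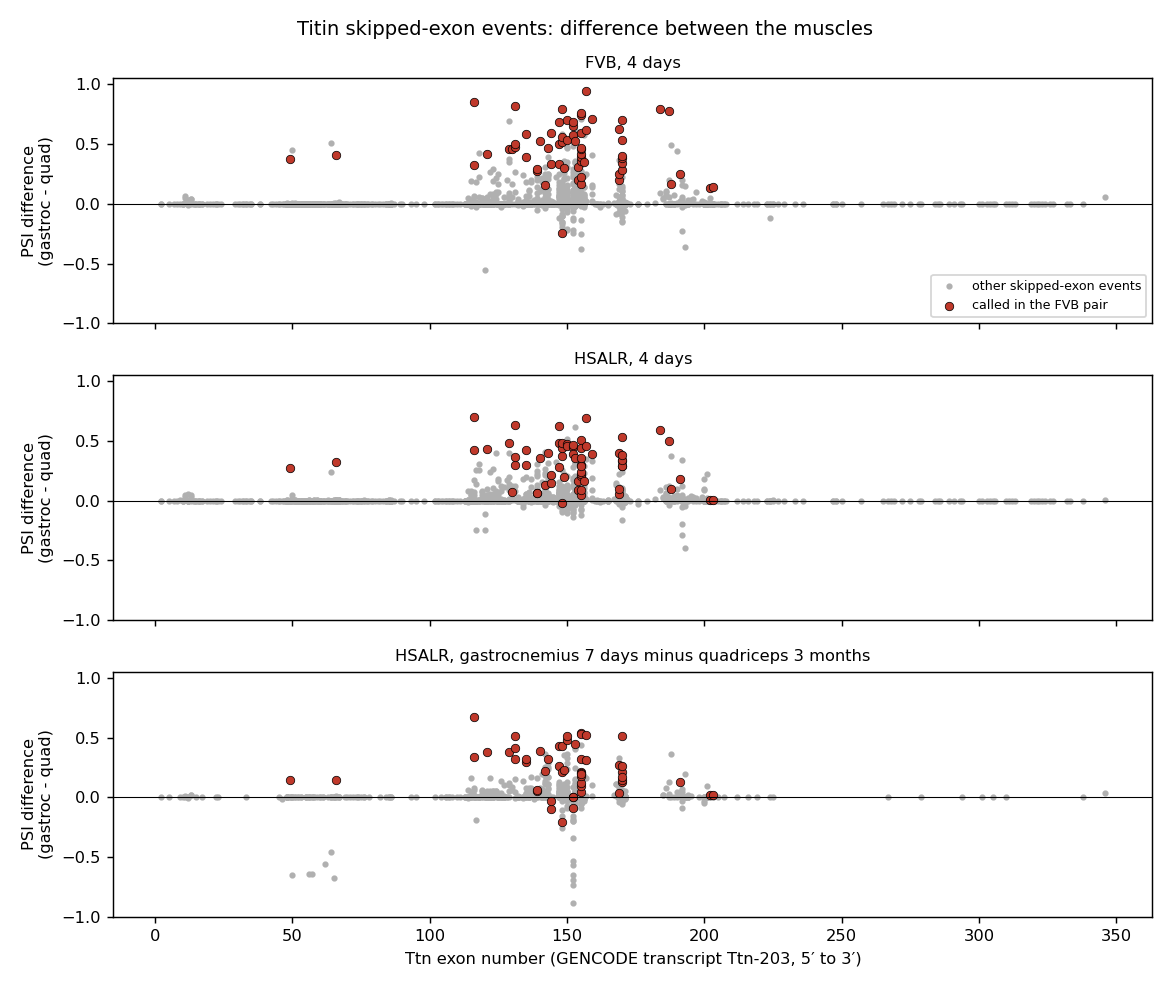
Difference in PSI (vertical axis, gastrocnemius minus quadriceps) of titin skipped-exon events against exon number in transcript Ttn-203, in the FVB pair, the HSALR pair of 4 days and the other-cohort pair; red points are the 64 events called in the FVB pair, grey points all others with a value. In the FVB panel 63 of the 64 red points lie above 0, most of them from exon 116 on, and events with other flanking exons give several points per exon.

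The HSALR pair of 4 days gave the same direction for all 129 called titin events, of which 28 were called there (0.144% of all events were called). The median difference over the 32 exons was 0.39 PSI. Exon 116 stood at 0.602, 0.922, 0.946 and 0.762 PSI in HSALR gastrocnemius and at 0.075, 0.201, 0.075 and 0.070 PSI in HSALR quadriceps (0.703, adjusted p = 0.00057). HSALR quadriceps replicate 2, whose summed level of slow fibre genes of 21000 TPM was the highest of its group, had the highest inclusion of its group in exon 131 (0.457), exon 157 (0.329) and exon 184 (0.540). FVB quadriceps replicate 3 had the highest slow fibre sum of its own group (14700 TPM) and titin values within the range of the other FVB quadriceps libraries for exons 116, 131 and 157 and below it for exon 184.

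In the other-cohort pair 23 of the 32 exons had a value in every library, 21 with the same sign, at a median difference of 0.317 PSI. Exon 116 stood at 0.083, 0.058, 0.047 and 0.057 PSI in quadriceps of 3 months. In gastrocnemius of 7 days it ran from 0.037 to 1 PSI, and the lowest value was that of replicate 6 (0.672, adjusted p = 0.058). Quadriceps replicate 3 of 3 months had 0.456 PSI for exon 131 and 0.444 for exon 157, against at most 0.110 and 0.013 in the other 3, but the lowest value of the 4 for exon 116. Of the 84 called titin events with a value there, 81 had the same sign and 3 were called, or 83 and 47 without the 2 libraries. In that pair 1.22% of all events were called. In FVB gastrocnemius of 7 days, exons 116 and 157 were at 1 PSI in each of the 4 libraries.

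Other proteins of the sarcomere differed in single events. An exon of Neb, which encodes nebulin, the ruler of the thin filament (93 nucleotides, chr2:52156355-52156447), stood at 0.908, 0.909, 0.900 and 0.938 PSI against 0.751, 0.802, 0.800 and 0.760 PSI (0.136, adjusted p = 0.028). The groups did not overlap. In Tnnt3, the fast troponin T, a 15-nucleotide exon (chr7:142504250-142504264) was chosen over a downstream exon in 0.209, 0.343, 0.266 and 0.174 of gastrocnemius against 0.075, 0.102, 0.075 and 0 of quadriceps transcripts (0.185, adjusted p = 0.016). In HSALR muscle the same event was at 0 to 0.011 in all 8 libraries. Trdn, a partner of the calcium release channel, differed in a pair of exons (0.168, adjusted p = 0.04). Pdlim5, a Z-disc protein, differed in a splice site (0.212, adjusted p = 0.041; 0.234 and adjusted p = 0.039 in the HSALR pair). The authors deposited a separate table of 36 exons of interest for myotonic dystrophy, of which 27 could be tested here. Limma called 0 of the 27 between the wild-type muscles and 2 had an unadjusted p under 0.05, with a largest absolute difference of 0.143 PSI.

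Some slow fibre genes were higher in gastrocnemius, and quadriceps libraries varied widely. Myh7, the slow myosin heavy chain, was read at 661, 403, 559 and 910 TPM in gastrocnemius and at 49.9, 105, 368 and 49.5 TPM in quadriceps. The groups did not overlap, yet quadriceps replicate 3 came close to gastrocnemius, and the gene did not pass the test (2.60 ± 0.91 SE, adjusted p = 0.086). Myh6, a cardiac myosin heavy chain encoded beside Myh7, stood at 49.2, 30.6, 43.8 and 68.9 TPM against 4.20, 9.18, 26.1 and 3.15 TPM (2.43, adjusted p = 0.034). Myh7b stood at 9.62, 6.69, 10.2 and 12 TPM against 1.90, 2.25, 4.30 and 0.604 TPM (1.80, adjusted p = 0.018). Tpm3, the slow tropomyosin, stood at 821, 530, 672 and 946 TPM against 93.7, 169, 488 and 82.0 TPM (2.18, adjusted p = 0.044). In each of these genes quadriceps replicate 3 was the highest of its group, and none of the groups overlapped. Since Myh6 and Myh7 are near copies, reads may be split between them.

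Of 8 myosin heavy chain genes tested 2 were higher and 0 lower (median 0.78), beside 8.19% of all genes higher. Of 20 slow oxidative fibre genes 1 was higher, Tpm3, a share (5.0%) below that of all genes, at a list median of 1.21. The count was 7 without quadriceps replicate 3, and 0 without any other single FVB library or with FVB libraries alone. The summed level of the 20 was 14200, 9470, 14500 and 14600 TPM in gastrocnemius and 6100, 7650, 14700 and 3350 TPM in quadriceps, so that the sums overlapped through replicate 3. In the HSALR pair 10 of 20 were higher (median 1.39), and Myh7 differed by 4.86 (adjusted p = 0.0019). In the other-cohort pair 1 of 20 was higher (median 1.07), or 13 without the 2 libraries. Limma called 0 of 22 fast glycolytic genes (median -0.09), and 0 had an unadjusted p under 0.05. Myh4, the fastest and most abundant myosin heavy chain, was read at 22400 ± 1150 TPM against 23900 ± 3550 TPM (SD, n = 4 each; -0.08, adjusted p = 0.89). Myh1 differed by -0.17 (adjusted p = 0.66) and Myh2 by 0.92 (adjusted p = 0.39). Only 1 of 30 regulators of fibre type passed (3.33%, beside 9.63% of all genes), Mef2a, a factor that switches on muscle genes. It was lower in gastrocnemius at 68.1, 68.4, 66.2 and 47.0 TPM against 74.3, 81.1, 79.6 and 83.2 TPM (-0.36, adjusted p = 0.03), with gastrocnemius replicate 4 the lowest. In bulk tissue, fewer fibres of a type and less RNA per fibre cannot be told apart.

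A microRNA encoded within the slow myosin gene Myh7 had the same order. Mir208b was read at 4.65, 19.6, 47.9 and 53.6 TPM in gastrocnemius and was listed at 0 in all 4 quadriceps libraries (adjusted p = 0.0022). HSALR quadriceps had it at 0, 2.86, 0 and 0 TPM, and HSALR gastrocnemius at 15.0, 9.26, 113 and 25.7 TPM (adjusted p = 0.0013). In quadriceps of 3 months only replicate 3, at 33.0 TPM, was above 0. These libraries were not made to capture mature microRNAs, so the values reflect reads over the hairpin entry. The 3p mature form is printed because its seed (bases 2 to 8, in capitals) matches that of miR-499 in all but the last letter. The latter is encoded in Myh7b, another myosin gene. Mir499 itself was listed at 0 in 7 of the 8 libraries. The sequences are RefSeq's, on GRCm38.p6, from chr14:54975710-54975731 (minus strand) and chr2:155622893-155622913 (plus strand).
mmu-miR-208b-3p: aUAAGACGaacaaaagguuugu
mmu-miR-499-5p: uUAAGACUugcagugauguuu

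Of 24 genes of fatty acid use, 27 of glycogen and glycolysis, 25 of calcium handling and 20 ion channels of muscle, limma called 0 in each list, with medians of -0.35, -0.08, -0.10 and -0.09. At an unadjusted p under 0.05 there were 4, 0, 4 and 2 genes of these lists, beside 3460 of all 13651 genes. Adipocyte genes were lower in gastrocnemius for 3 of 20 (Fasn, Thrsp and Scd1, list median -1.41). Brown adipocyte genes were lower for 2 of 6 (Ucp1 and Cox7a1, median -1.51), beside 1.44% of all genes. Without quadriceps replicate 1, both lists together had 2 genes higher and 2 lower. In the HSALR pair 2 adipocyte genes were higher and 0 lower (median 0.36). The other-cohort pair had 0 higher and 5 lower of 19 (median -0.84), or 1 higher and 1 lower without the 2 libraries (median -0.4). With FVB libraries alone, both lists together had 0 genes higher and 0 lower. Fasn, the fatty acid synthase, was read at 31.7, 17.1, 16.8 and 33.1 TPM against 1180, 165, 30.0 and 283 TPM (-3.06, adjusted p = 0.047). Ucp1, the uncoupling protein that defines brown fat, was read at 5.84, 0.132, 0.0438 and 0.123 TPM against 856, 53.4, 1.54 and 68.2 TPM (-4.95, adjusted p = 0.032). Quadriceps replicate 1 was the highest for both and replicate 3 the lowest of its group, and through replicate 3 both genes overlapped with gastrocnemius. Without replicate 1 Fasn had an adjusted p of 0.0863 and Ucp1 of 0.0521. Scd1, a desaturase, and Thrsp, an activator of lipid synthesis, followed the same order of libraries (-1.91 and -2.70). Adipocyte markers moved with these genes, and their part in the result was not tested.

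Glycogen genes of the liver type had the same order. Gys2, the liver glycogen synthase, was read at 1.09, 0.311, 0.310 and 0.195 TPM against 35.9, 3.48, 0.6 and 5.51 TPM (-2.16, adjusted p = 0.045), with quadriceps replicate 1 highest and replicate 3 below gastrocnemius replicate 1. It was also lower in HSALR gastrocnemius (-2.64, adjusted p = 0.0091), at 0.688 to 0.946 against 6.32 to 14.2 TPM. There adipocyte sums were higher in gastrocnemius (4490 to 5720 TPM) than in quadriceps (1860 to 3610 TPM). Brown adipocyte sums were lower in gastrocnemius (1370 to 1690 TPM) than in quadriceps (2180 to 2460 TPM). The part of fat in the Gys2 difference was not tested. In the other-cohort pair Gys2 differed by -1.44 (adjusted p = 0.037). Ppp1r3b, a glycogen-targeting subunit of protein phosphatase, was lower in FVB gastrocnemius (-1.50, adjusted p = 0.046) but stood at 0.30 in the HSALR pair (adjusted p = 0.70).

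Some markers of nerve were higher in gastrocnemius. Of 10 Schwann cell and nerve genes tested 4 were higher and 0 lower (median 0.75), beside 8.19% of all genes higher. Mbp, myelin basic protein, was read at 145, 82.9, 44.3 and 54.4 TPM against 34.2, 39.5, 30.6 and 27.4 TPM (1.14, adjusted p = 0.043). Prx, periaxin of peripheral myelin, was read at 29.9, 20.1, 12.1 and 18.0 TPM against 7.74, 10.5, 8.44 and 7.06 TPM (1.10, adjusted p = 0.019). Both were highest in gastrocnemius replicate 1, and the groups did not overlap. Sox10, the master factor of Schwann cells (0.68, adjusted p = 0.027), and Ncmap, a myelin protein (0.81, adjusted p = 0.046), were the other 2. The sum over the list was 734, 459, 237 and 273 TPM against 211, 226, 186 and 167 TPM. The HSALR pair had 6 of 10 higher and the other-cohort pair 5 of 10 (medians 0.76 and 0.89), with Prx at 1.37 (adjusted p = 0.023). The FVB count ran from 0 to 6 when single libraries were left out, and was 0 without gastrocnemius replicate 1, gastrocnemius replicate 2 or quadriceps replicate 4, and with FVB libraries alone. How much of the nerve trunk was dissected with a muscle is not given in the labels.

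Of 18 genes of the neuromuscular junction and denervation 2 were higher in gastrocnemius, a share near that of all genes (8.19% higher). Musk, the receptor kinase that gathers acetylcholine receptors, was read at 38.5, 57.5, 53.1 and 40.1 TPM against 15.6, 27.9, 30.4 and 16.3 TPM (1.07, adjusted p = 0.0085). Lrp4, its partner that binds agrin, was read at 15.0, 14.1, 15.1 and 12.8 TPM against 9.14, 9.20, 9.32 and 8.31 TPM (0.61, adjusted p = 0.0051). Both pairs of groups were fully apart. Chrna1, an acetylcholine receptor subunit, did not pass in FVB mice (0.33, adjusted p = 0.27) and was higher in HSALR gastrocnemius (1.2, adjusted p = 0.00044). Musk was higher in the HSALR pair too (1.19, adjusted p = 0.002), but not in the other-cohort pair (0.09, adjusted p = 0.84). Among 17 myokines and growth factors only Ostn passed (5.88%, beside 9.63% of all genes), a muscle-secreted peptide also called musclin. It was read at 20.5, 12.3, 16.5 and 20.7 TPM against 7.6, 6.23, 3.83 and 4.70 TPM (1.49, adjusted p = 0.0041). It differed by -0.54 in the other-cohort pair (adjusted p = 0.37).

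A few genes of the early stress response were lower in gastrocnemius of wild-type mice, beside 1.44% of all genes. Atf3, a stress transcription factor, was read at 20.3, 15.3, 27.5 and 33.1 TPM against 81.0, 67.2, 110 and 113 TPM (-1.93 ± 0.30, adjusted p = 0.0014). Of 24 immediate early genes 3 were lower (Atf3, Jun at -0.95 and Btg2 at -1.34) and 0 higher, with a median of -0.17. Of 22 heat shock and stress genes only Dnajb1, a chaperone, was lower (-1.45, adjusted p = 0.022), at 13.6, 18.5, 20.8 and 14.5 TPM against 40.4, 42.3, 50.4 and 57.1 TPM. The groups of Atf3, Jun, Btg2 and Dnajb1 did not overlap. Over both lists 4 of 46 passed, or 1 to 4 when single libraries were left out, with 1 without gastrocnemius replicate 1 or quadriceps replicate 4. The count lower was 8 with FVB libraries alone and 16 with replicate number as a block, with 0 higher in both. With FVB gastrocnemius of 7 days in place of 4 days it was 17, with 2 higher. In the HSALR pair the 4 genes of the main fit did not pass: Atf3 stood at 0.05 (adjusted p = 0.94), Jun at -0.35 (adjusted p = 0.35), Btg2 at -0.27 (adjusted p = 0.67) and Dnajb1 at 0.09 (adjusted p = 0.90). The difference between the genotypes was -1.97 for Atf3, and limma gave it an adjusted p of 0.51. Of 20 clock genes Per1 (0.59, adjusted p = 0.041) and Per3 (0.79, adjusted p = 0.028) were higher in gastrocnemius and 0 lower, again near the share of all genes. Both were called in the HSALR and other-cohort pairs as well, but with FVB gastrocnemius of 7 days in place of 4 days the named gene Per1 stood at -0.0487. The hour at which each muscle was taken is not given, and its part in these differences was not tested.

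**Figure D3:**
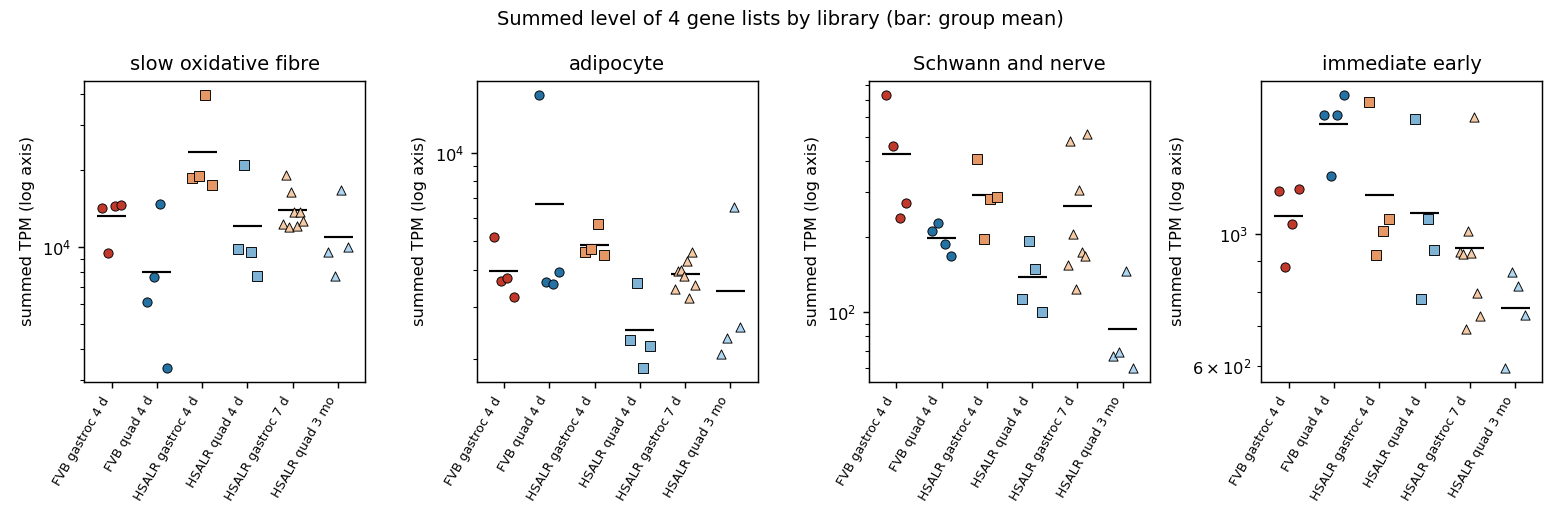
Summed TPM (vertical axes, log scale) of the genes of 4 lists in each library, with group means as bars. FVB quadriceps replicate 1 lies apart for adipocyte genes (15700), FVB quadriceps replicate 3 lies with gastrocnemius for slow oxidative genes (14700), and the nerve sums of FVB gastrocnemius (237 to 734) lie above those of FVB quadriceps (167 to 226).

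Other cell types showed few called genes. Limma called 0 of 13 smooth muscle and pericyte genes, 0 of 20 fibroblast and matrix, 0 of 15 tendon, 0 of 12 satellite cell, 0 of 3 cartilage and bone genes and 0 of the 1 keratinocyte gene tested. At an unadjusted p under 0.05 these lists had 0, 1, 4, 0, 1 and 0 genes. It called 1 of 15 endothelial genes (Egfl7, 0.85, adjusted p = 0.0031), 1 of 13 macrophage genes (Cx3cr1, 0.59), 1 of 2 lymphocyte genes (Cd8a, 0.68), 1 of 3 neutrophil genes (Cxcr2, 1.02) and 2 of 4 red blood cell genes (Hba-a2, 1.09, and Epb42, 0.71), all higher in gastrocnemius. The share called over all genes was 9.63%. Limma called 0 of 5 sex-linked genes (0 at an unadjusted p under 0.05), and the 13 mitochondrially encoded genes listed were not analysed here. Both muscles had the defining genes of skeletal muscle, with Acta1, the skeletal actin, at 39800 to 49800 TPM in the 8 libraries.

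Of 5 actin and transgene entries Actc1, the cardiac actin that adult muscle keeps at a low level, was lower in gastrocnemius of 4 days at 792, 549, 543 and 476 TPM against 1300, 1530, 1280 and 1380 TPM (-1.24 ± 0.23, adjusted p = 0.0041). The groups were fully apart, but FVB gastrocnemius of 7 days stood at 1470, 1150, 996 and 1710 TPM. Set against those libraries the difference was -0.07 (adjusted p = 0.847). All HSALR libraries of 4 days were at 26.2 to 75.0 TPM.

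Further genes were lower in gastrocnemius. Cyp4f39, a fatty acid hydroxylase, was read at 0.158 to 0.556 TPM against 2.91 to 5.20 TPM (-1.87, adjusted p = 0.016). Igfn1, a sarcomere-associated protein, was read at 6.97, 2.83, 3.46 and 3.58 TPM against 16.2, 15.1, 13.7 and 19.3 TPM (-1.76, adjusted p = 0.03), and was also lower in the other-cohort pair (-2.29, adjusted p = 0.034). Otud1, a deubiquitinase (-1.45), Pappa2, a protease of insulin-like growth factor binding proteins (-1.40, adjusted p = 9.8e-05), and Tspan12, a tetraspanin (-1.10), completed the 12 lowest among called genes whose groups did not overlap. Ddah1, an enzyme that breaks down a natural inhibitor of nitric oxide synthase, was lower in all 3 pairs (-0.99, -1.03 and -1.12; adjusted p = 0.0012, 0.00032 and 0.027). Col11a2, a fibrillar collagen chain, was higher in all 3 (1.51, 0.99 and 1.2; adjusted p = 0.0015, 0.0078 and 0.0044), at 9.94 to 18.0 TPM against 2.83 to 5.19 TPM in FVB mice.

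Among called genes whose groups did not overlap, leaving out predicted and unnamed genes, the 12 with the highest differences were all small RNAs. Of 598 small noncoding RNA genes 113 (18.9%) were higher and 0 lower (median 1.49), and of 524 long noncoding RNA genes 208 were higher and 3 lower (median 0.54). Over all genes 8.19% were higher and 1.44% lower. Protein-coding genes made up 906 of the calls, of 12090 tested (7.49%; 715 higher and 191 lower, median 0.01; 971 and 1071 with median rescaling), and pseudogenes 24 of 102. The 109 small nucleolar RNA genes, which guide the modification of ribosomal RNA, summed to 9730, 9170, 9820 and 12800 TPM in gastrocnemius and to 3330, 2110, 2070 and 2080 TPM in quadriceps, and 41 of them were called. Most of these RNAs lie within introns of host genes, and reads of guide and host may not be told apart. Small noncoding RNAs of all kinds summed to 31500 to 54100 TPM in gastrocnemius and 11200 to 16100 TPM in quadriceps.

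Rnu12, the small nuclear RNA of the minor spliceosome, was read at 434, 533, 477 and 1010 TPM against 4.76, 1.99, 0 and 9.04 TPM (7.32 on the log2(TPM + 1) scale, adjusted p = 3.3e-05). Snora23 stood at 250, 278, 273 and 487 TPM against 10.2, 10.5, 8.10 and 5.65 TPM (5.05, adjusted p = 1.9e-06). The others of these 12 were Mir208b, Snora15, Snora3, Snora7a, Snord118, Snord83b, Vaultrc5, Mir5098, Mir7660 and Mir6945. All of these are small RNAs, and gastrocnemius replicate 4 was the highest of its group for Rnu12, Snora23 and Snord118. Neat1, the RNA scaffold of nuclear paraspeckles, was read at 1080, 945, 1010 and 863 TPM against 296, 165, 188 and 127 TPM (2.39 ± 0.18, adjusted p = 3.2e-06). Malat1, of nuclear speckles, was read at 3150, 3320, 3100 and 2520 TPM against 1560, 939, 994 and 897 TPM (1.49 ± 0.16, adjusted p = 9.6e-05). Quadriceps replicate 1 was the highest of its group for both, and no group overlapped. Zrsr1, a single-exon gene for a splicing factor subunit, was read at 1100, 919, 982 and 2790 TPM against 121, 360, 255 and 399 TPM (2.32, adjusted p = 0.0022), and at 0.43 in the HSALR pair (adjusted p = 0.48).

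Retained introns had the same direction. Of 2243 retained introns tested 42 were called (1.87%, beside 0.354% of all events), all higher in gastrocnemius in the main fit. They made up 42 of the 59 called events of those 55 genes. With FVB libraries alone 5 were called higher and 1 lower, and with replicate number as a block in the fit 0 were called. Over all 2243 introns, the median PSI per library was 0.129 to 0.135 for FVB gastrocnemius, against 0.027 to 0.077 for FVB quadriceps. The shift was thus not confined to the 42. The mean PSI of the 42 was 0.329, 0.338, 0.361 and 0.356 in the gastrocnemius and 0.159, 0.117, 0.0869 and 0.114 in the quadriceps libraries, which describes events chosen for this difference. In Hnrnpk, an RNA-binding protein, an intron of 207 nucleotides (within chr13:58393853-58394159) stood at 0.583, 0.6, 1 and 1 PSI against 0.250, 0.158, 0 and 0.111 PSI (0.666, adjusted p = 0.014). In Ddx5, an RNA helicase, an intron of 1265 nucleotides stood at 0.641, 0.561, 0.601 and 0.547 PSI against 0.401, 0.384, 0.348 and 0.352 PSI (0.216, adjusted p = 0.011). Neither gene's groups overlapped. Retained introns of Srsf5, a splicing factor (0.208, adjusted p = 0.016), Tpm2, a tropomyosin (0.378, adjusted p = 0.029), Rsrp1 (0.400), Dus3l (0.419), Phf20l1 (0.369), Rapgef3 (0.354) and Hdac7 (0.321) were also higher. Alternative splice sites of Snrnp70, a protein of the U1 particle (0.424, adjusted p = 0.0025), Echdc2 (0.418) and Akap8 (0.370) differed likewise. Of 31 splicing regulators 22.6% were called, beside 9.63% of all genes. There were 6 higher (Srsf1, Srsf5, Srsf7, Hnrnpa1, Hnrnph1 and Nova2, from 0.37 to 0.77) and 1 lower (Celf2, -0.41, adjusted p = 0.039). Leng8, another protein-coding gene, differed by 1.40 (adjusted p = 0.00068).

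The other-cohort pair differed from the 4-day pairs in these RNAs. Quadriceps of 3 months had Neat1 at 767 to 837 TPM, Malat1 at 3110 to 3490 TPM and Rnu12 at 312 to 474 TPM, all far above quadriceps of 4 days and near gastrocnemius. Its small nucleolar RNAs summed to 7150 to 9410 TPM, and the mean PSI of the 42 introns was 0.295 to 0.319. Gastrocnemius of 7 days stood at 6730 to 10900 TPM and 0.291 to 0.348 PSI. Of all 2243 introns, those with a value had a median PSI per library of 0.109 to 0.113 in quadriceps of 3 months. In gastrocnemius of 7 days it was 0.125 to 0.139. Between these groups Neat1 differed by 0.02 (adjusted p = 0.86) and Malat1 by -0.23 (adjusted p = 0.017), and small noncoding RNAs had 18 higher and 3 lower genes (median 0.10). In a further cohort, the total RNA of 4 HSALR quadriceps given PBS and taken at 4 days beside a nascent RNA fraction, Neat1 stood at 83.4 to 108 TPM, Malat1 at 1160 to 1310 TPM and Rnu12 at 0 to 8.77 TPM. Neat1, Malat1 and Rnu12 were thus low in quadriceps of 4 days in both of these cohorts, and high in the 3-month cohort. Within the wild-type pair, muscle and cohort cannot be told apart for them.

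**Figure D4:**
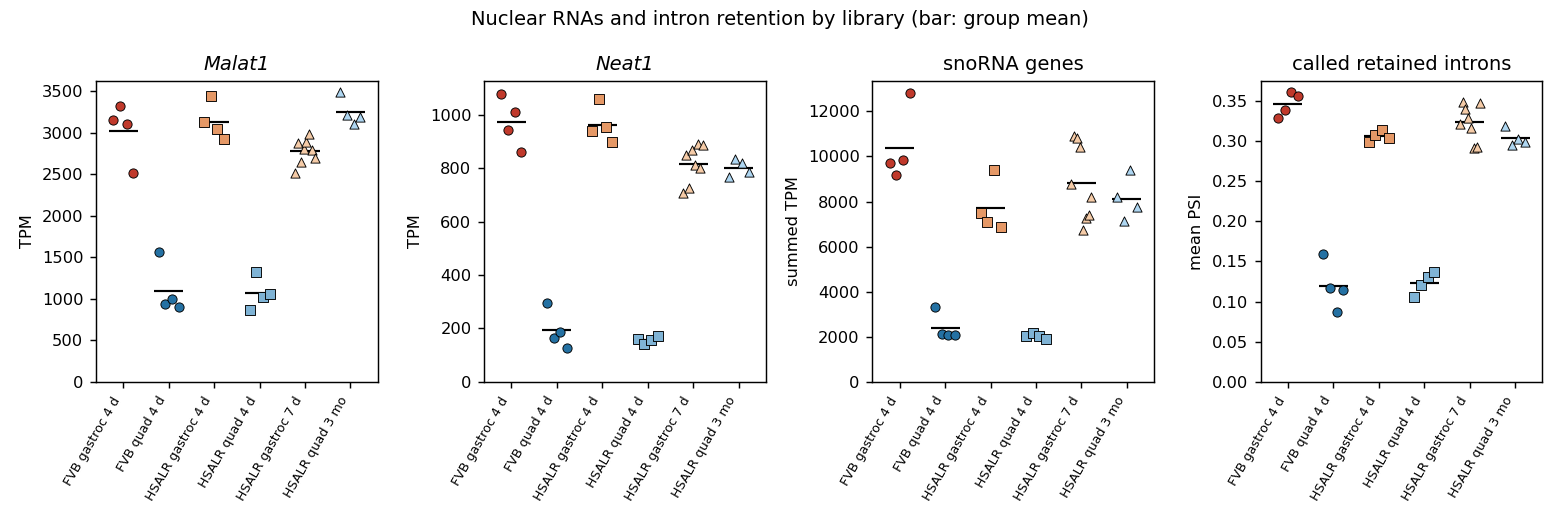
Levels of Malat1 and Neat1 (TPM), the summed TPM of 109 small nucleolar RNA genes and the mean PSI of the 42 called retained introns (vertical axes, from 0) by library, with group means as bars. Quadriceps of 4 days lies low in both genotypes (Neat1 127 to 296 TPM in FVB), while quadriceps of 3 months (767 to 837 TPM) lies with the gastrocnemius groups.

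The genes called in wild-type mice were read across the other pairs to see which differences recur. The HSALR pair of 4 days came from the same cohorts as the wild-type pair and shared its fit and estimate of the spread. Its calls are thus not independent of those in wild-type mice. Of the 1118 higher genes 1110 had the same sign in the HSALR pair of 4 days, 977 were called there in the same direction and 1 in the opposite. In the other-cohort pair 740 of 1116 had the same sign, 85 were called in the same direction and 18 in the opposite. Of the 197 lower genes 181 had the same sign in the HSALR pair and 55 were called, and in the other-cohort pair 165 of 193 had the same sign, 55 were called and 3 went the opposite way. Over all 13651 genes tested, the HSALR pair had 2306 called higher and 270 lower. Of these genes 13437 were tested in the other-cohort pair, with 617 called higher and 963 lower there. In all 3 pairs 80 genes were called higher and 20 lower, among them Hoxa11, Hoxd4, Tbx4, Prx, Sox10, Ncmap, Nova2, Hnrnpa1, Per1, Per3, Col11a2, Tbx15, Ddah1 and Gys2. In the HSALR pair, median rescaling moved the median of all genes from 0.14 to -0.02.

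Whether the muscles differ by another amount in HSALR mice was tested as an interaction. Limma called 0 of 13651 genes (0%) and 0 of 55630 events (0%), with 699 genes and 1342 events at an unadjusted p under 0.05. With fits of other settings the counts were 0 to 3 genes and 0 to 2 events. A difference that was called in only one genotype, as for Atf3 or Actc1, is therefore not shown to differ between the genotypes.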

How the data were processed

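Gene levels were deposited by the authors as TPM per gene and library, and splicing as PSI, a fraction of inclusion per event and library in 1 table of all events and 1 of 36 exons. The submitters' processing notes name cutadapt, STAR, kallisto and the builds GRCm38 and mm10, with no versions. Per the labels' protocols, RNA was DNase-treated on columns, depleted of ribosomal RNA and made into directional libraries. No read counts were used, so the depth per library and its counting error are unknown.

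Of 24528 gene rows 2 were dropped for missing values. Genes with a mean of at least 1 TPM over 16 libraries were fitted as log2(TPM + 1) with limma (version 3.58.1, R 4.3.3), with 1 term per muscle and genotype, and p-values were adjusted by Benjamini-Hochberg over all genes at 0.05. Of 117460 events, of which 31 coordinates stand under 2 symbols, those with a PSI in all 16 libraries were fitted alike, with a minimum difference of 0.1. Events of 1 gene are in the totals but not reported here. The other-cohort pair was fitted alone and added after the data were seen. Events' coordinates start from 0 in the table and are printed from 1. Exons were numbered and read from GENCODE vM21, and microRNAs from RefSeq. The limma fits were tested on simulated data.

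The 34 gene lists were Hox, patterning, fibre type, myosin, metabolic, calcium, ion channel, junction, splicing, sarcomere, myokine, actin, stress, clock, sex, mitochondrial and cell type lists. The comparison and lists were chosen with earlier results of these data known. Genes were named by a rule: the 12 highest and 12 lowest differences among called genes whose FVB groups did not overlap, without predicted and unnamed genes, and 12 events in each direction, 1 per gene, plus called events of sarcomere genes and members of the lists. Others were chosen after their values were seen. The scaling, filter, pseudocount, groups fitted, replicate block, sex and each library were varied. Python 3.11.15, pandas 2.3.3, scipy 1.17.1 and matplotlib 3.10.9 were used.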

Additional observations from a re-analysis of the deposited data

Results flagged for a closer look

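Of 166 values examined in the 2 FVB groups, 24 had a library far from the other 3 of its group, where chance flags about 1 in 20. The measure was the gap to the nearest library as a share of the group's range, above 0.829.

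In FVB quadriceps, replicate 1 was high for Ucp1 (856 TPM), Ppp1r3b (25.9), Gys2 (35.9), Tspan12 (47.7), Malat1 (1560), Snora15 (8.37, with the others at 0), Srsf5 (97.2), Srsf7 (25.6), Cx3cr1 (2.07) and Hoxc5 (4.02), and for the adipocyte sum (15700). Replicate 2 was low for Btg2 (87.0), and replicate 3 was low for the number of events with a value (58335).

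In FVB gastrocnemius, replicate 1 was high for Hoxd8 (70.3 TPM), Ucp1 (5.84) and Gys2 (1.09). Replicate 4 was high for Rnu12 (1010), Snora23 (487), Snord118 (162) and Zrsr1 (2790) and low for Ttn (5120) and Mef2a (47.0). Replicate 2 was low for the slow oxidative fibre sum (9470), and replicate 3 was high for Myh1 (2340).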

How the results depend on the processing

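The count of 1315 genes became 731 with a mean of at least 5 TPM, 2531 with median rescaling, 262 with FVB libraries alone, 1991 with all time course groups and 3649 with FVB gastrocnemius of 7 days in place of 4 days. It ran from 713 to 2057 when single libraries were left out, lowest without FVB quadriceps replicate 4 and highest without replicate 1. The interaction counts of 0 became 1 gene with a mean of at least 5 TPM, 1 event on the logit scale or with no minimum difference, and 0 to 2 genes and 0 to 2 events without single libraries. The 197 events became 127 at a minimum difference of 0.2, 70 with FVB libraries alone, 428 with all time course groups, 379 with 7 days in place of 4 and 59 without FVB quadriceps replicates 1 and 3, a setting added after the data were seen, and 97 to 166 without single libraries. The cause of these shifts was not tested. The labels do not say whether a replicate number marks the same mouse in both muscles. Same-numbered libraries correlated weakly, at 0.09 to 0.16 (FVB) and 0.039 to 0.24 (HSALR), but 6 of 8 correlated most with their own number. Summed levels of the sex-linked list also ran alike by number. They were 74.6, 121, 133 and 37.4 TPM in FVB gastrocnemius and 72.7, 105, 112 and 41.4 TPM in FVB quadriceps. In HSALR mice they were 132, 73.6, 71.1 and 123 against 110, 45.1, 40.4 and 109 TPM. The main fit held no term for replicate number, so any pairing by mouse was ignored there. With the replicate block 1946 genes, 3 interaction genes and 4 events were called in the FVB pair, and 4 events in the HSALR pair; titin skipped-exon events were then 3 higher and 0 lower and retained introns 0. Signs changed for the named gene Per1 (-0.0487) and the named gene Myh4 (0.0749) with 7 days in place of 4 days. Myh4 ran from -0.144 to 0.000857 without single libraries, and the named gene Myh1 stood at 0.0142 without quadriceps replicates 1 and 3. Over the other settings of named genes 1331 values stayed on the same side of the threshold, 292 lost the call and 7 gained it; for named events 274 stayed and 171 lost it. Without the 2 libraries of the other-cohort pair, 2010 genes and 430 events were called there.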
